A study of Mus musculus with 2 samples.

Results

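The TALE family of homeobox proteins includes DNA-binding partners of Hox proteins. The transcripts of 8 such genes were followed in mouse embryonic fibroblasts: Meis1, Meis2 and Meis3 of the MEIS group, Pbx2, Pbx3 and Pbx4 of the PBX group, and Pknox1 and Pknox2 of the PREP group. The genes were taken by symbol from a deposited table of 23365 genes, and 8 of 8 matched a row. The rule that picks them uses the symbol alone, and the list of symbols was drawn up with earlier results of these data known.

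The TALE family is named for a short insertion in a loop of its homeodomain. PBX proteins bind DNA side by side with Hox proteins, and the pair recognizes longer and more specific sites than a Hox protein does alone. MEIS and PREP proteins bind PBX proteins, keep them in the nucleus and join them on DNA. In the limb bud, Meis1 and Meis2 mark the proximal part and respond to retinoic acid.

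The series holds 2 genotypes with 1 library each. One is wild type and the other lacks both TET1 and TET2, which oxidize methylated cytosine. The cells were cultured fibroblasts from mouse embryos, a mixed mesenchymal population, and strain, embryo age, passage, and how the alleles were made were not stated in the labels. The series title asks how Tet1 and Tet2 bear on developmental genes whose DNA lies in large unmethylated domains.

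Each gene has, in the authors' deposited table, a mean normalized count over both conditions and a ratio of a condition B to a condition A. The column names tie neither condition to a genotype, so each ratio is given as B over A and is read for neither the wild-type nor the knock-out cells. The values of the separate conditions were not used for this reason. A gene was said to meet the size rule when its log2 ratio was at least 1 in size, which is a 2-fold difference, at a mean normalized count of at least 50. With 1 library per genotype, ratios carry no replicate error, and the authors' p-values compare 2 libraries rather than 2 genotypes.

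Sequence around the transcription start was available for 5 of the 8 genes, Meis1, Meis2, Meis3, Pbx2 and Pbx4, in windows of 300 bases (250 before the start and 50 after it) from RefSeq on GRCm38.p6. That build is not the one the submitters' processing notes name, and the windows were matched by symbol. The pair printed here spans the range of CpG content among the 5, since CpG is the site that TET enzymes and DNA methyltransferases act on. CG is in capitals and each window is written 5′ to 3′ on the strand of its gene. The Meis2 window lies at chr2:116064570-116064869 on the minus strand and the Pbx2 window at chr17:34592009-34592308 on the plus strand, both in GRCm38.p6.
Meis2: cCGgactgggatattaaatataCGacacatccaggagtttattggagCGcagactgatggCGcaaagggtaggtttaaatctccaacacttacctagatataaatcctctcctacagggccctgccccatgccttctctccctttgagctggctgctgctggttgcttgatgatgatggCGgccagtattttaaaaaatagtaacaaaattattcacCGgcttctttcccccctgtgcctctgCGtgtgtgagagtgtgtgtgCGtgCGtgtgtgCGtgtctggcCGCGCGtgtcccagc
Pbx2: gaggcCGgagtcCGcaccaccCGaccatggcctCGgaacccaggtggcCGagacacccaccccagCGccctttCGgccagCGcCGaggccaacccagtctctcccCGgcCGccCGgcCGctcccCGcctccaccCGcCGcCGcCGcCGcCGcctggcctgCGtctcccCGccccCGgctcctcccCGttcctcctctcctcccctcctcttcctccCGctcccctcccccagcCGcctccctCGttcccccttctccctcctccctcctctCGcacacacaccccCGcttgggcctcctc

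The Meis2 window held 13 CpG and a GC content of 51.0%, and the Pbx2 window held 29 CpG and a GC content of 76.0%. Meis1 had 15 CpG in its window, Pbx4 had 19 and Meis3 had 21. The median over 32851 such windows of mouse genes was 7, with quartiles of 3 and 20, so each of the 5 windows lay above the median. The motif TGACAG, which MEIS and PREP proteins are known to bind, was found on either strand in 0 of the 5 windows and in 19.2% of all windows. The motif TGATTNAT, known for pairs of PBX and Hox proteins, was also found in 0 of the 5 and in 3.22% of all. These counts describe letters in short windows only.

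Of the 8 cofactor genes, 7 differed by less than 2-fold between the conditions, and Pknox2 was the exception. Pknox2 was 4.73-fold lower in condition B, while its close relative Pknox1 was 1.27-fold higher, both from the authors' deposited table. The MEIS genes and the PBX genes had ratios between 1.65-fold lower (Meis2) and 1.19-fold higher (Meis3) in condition B per the authors' deposited table. The size rule was met by 1 of 8 members, toward condition A, and by 0 toward condition B. Over all 12401 genes at the minimum mean, 17.9% met it, 9.60% toward condition A and 8.31% toward condition B. An authors' adjusted p under 0.1 was reached by 0 of 8 members, against 2.29% of the 17339 genes with a p-value per the authors' deposited table. The median log2 ratio of the 8 was 0.014, and that of all genes at the minimum mean was -0.036.

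**Figure D1:**
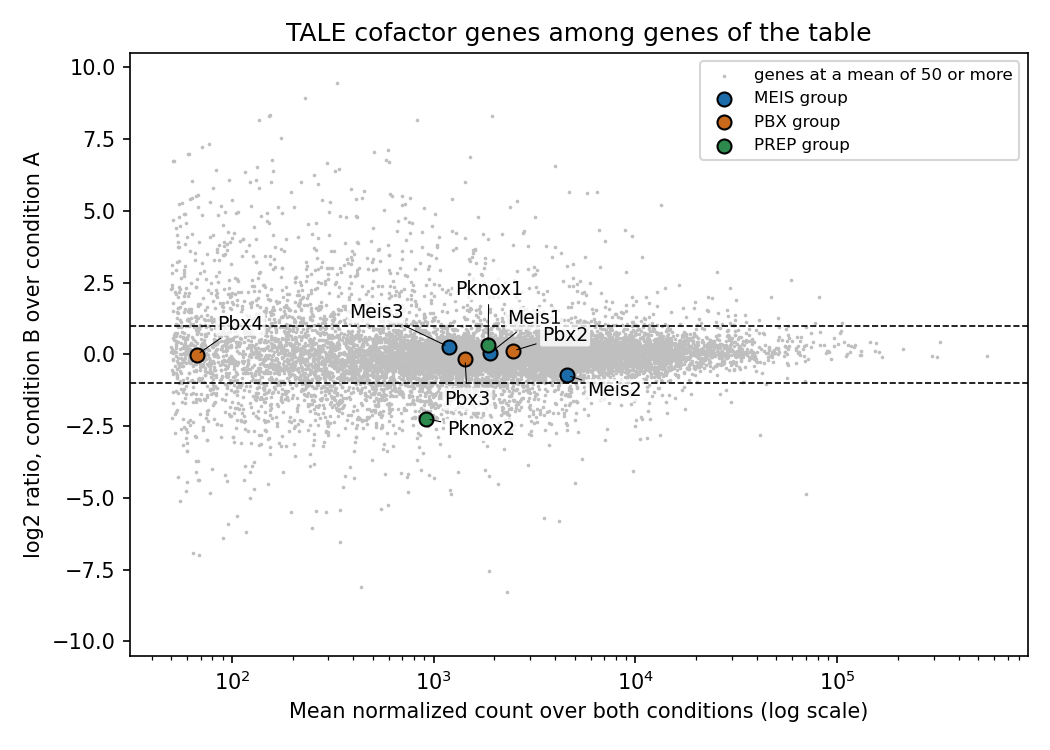
Log2 ratio of condition B over condition A (vertical axis) against the mean normalized count over both conditions (horizontal log axis). Grey points are genes at a mean of 50 or more with a finite ratio, coloured points are the 8 TALE cofactor genes, and dashed lines mark a log2 ratio of 1 in size. Pknox2, at -2.24, lies outside the lines and the other 7 lie between them.

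The PREP group gave the widest contrast. Pknox1 is broadly expressed and needed early in embryonic development, and Pknox2 is its relative with a more restricted pattern. The authors' deposited table gives Pknox1 a mean of 1861 normalized counts and a log2 ratio of 0.34 (p = 0.610, adjusted p = 1). For Pknox2 the authors' deposited table gives a mean of 916 normalized counts and a log2 ratio of -2.24 (p = 0.00320, adjusted p = 0.128). That adjusted p lay outside the cut-off of 0.1, and 433 genes of the table had one at or under it. The log2 ratios of the PREP genes stood 2.58 apart. No test of that difference was possible with 1 library per condition.

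MEIS proteins act as Hox and PBX cofactors in limb, blood and neural development. Meis2 had the highest mean of the 8 genes, 4564 normalized counts, and a log2 ratio of -0.73 per the authors' deposited table (p = 0.253, adjusted p = 1). Meis1, a gene well known for its part in leukaemia with Hoxa9, had a mean of 1906 and a log2 ratio of 0.049 there (p = 0.942, adjusted p = 1 per the authors' deposited table). Meis3 had a mean of 1190 and a log2 ratio of 0.26 per the authors' deposited table (p = 0.715, adjusted p = 1). The log2 ratio of Meis2 thus lay below those of its relatives, by 0.77 against Meis1 and by 0.98 against Meis3. None of the 3 MEIS genes met the size rule, and at 1.5-fold Meis2 did. Among all genes at the minimum mean with a finite ratio, 25.4% had a log2 ratio at least as large in size as Meis2.

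The 3 PBX genes had log2 ratios between -0.15 and 0.12. Pbx2, which is broadly expressed, had a mean of 2467 normalized counts and a log2 ratio of 0.12 per the authors' deposited table (p = 0.858, adjusted p = 1). Pbx3 had a mean of 1431 and a log2 ratio of -0.15 per the authors' deposited table (p = 0.823, adjusted p = 1). Pbx4, known mainly from the testis, had the lowest mean of the 8 genes. The authors' deposited table gives it 66.9 normalized counts and a log2 ratio of -0.020 (p = 1, adjusted p = 1). The sign of the Pbx4 ratio depended on the scaling, at 0.020 after the trimmed mean of all ratios was subtracted and 0.015 after their median was. The signs of the other 7 genes held under both of these scalings.

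To place each ratio, the genes with a mean within 2-fold of the member's own were taken as genes of like level. For Pknox2, 163 of 3394 genes of like level (4.80%) had a log2 ratio at least as large in size. For Meis2 it was 601 of 4339 genes (13.9%), and for Pknox1 2016 of 4470 (45.1%). The ratios of Meis3 (61.2%), Pbx3 (74.8%), Pbx2 (78.6%), Meis1 (90.7%) and Pbx4 (98.5%) were each equalled or passed by more than 60% of genes of like level. Thus 5 of the 8 members had ratios smaller than most genes at their level. A typical gene falls in the middle of this scale by its definition, so that count is near the one for genes in general. These shares describe a pair of libraries and are not tests.

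**Figure D2:**
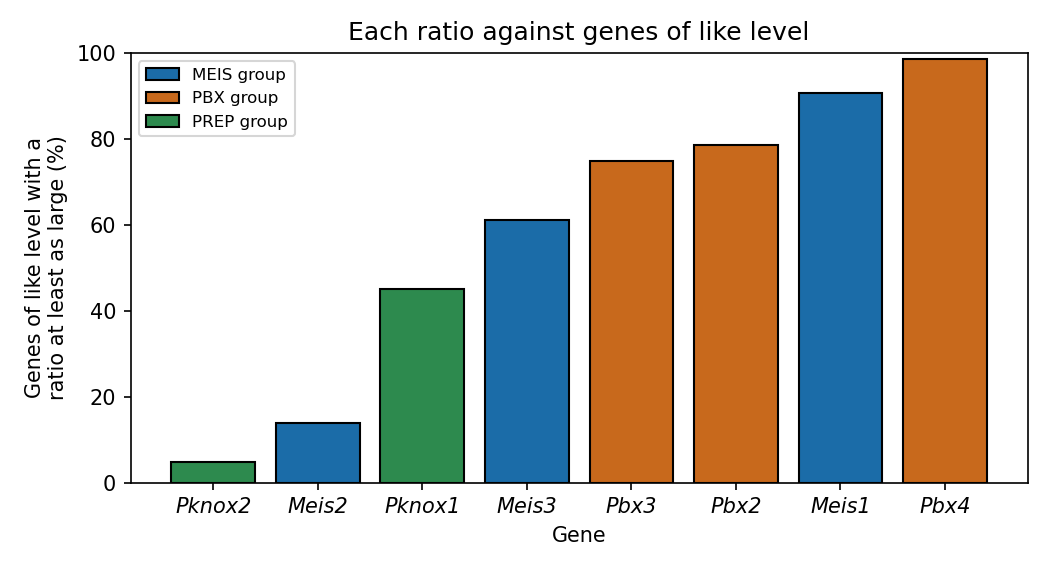
Percent of genes of like level (mean normalized count within 2-fold of the member's own) whose log2 ratio was at least as large in size as that of each TALE cofactor gene. Bars are coloured by group, and they run from 4.80% for Pknox2 to 98.5% for Pbx4.

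Levels of different genes can be compared only per length, and the comparison used the mean normalized count over both conditions per kb of the longest GENCODE M21 transcript. On that scale Meis2 stood at 830 per kb and Pbx2 at 804, followed by Meis3 at 618, Pbx3 at 501 and Pknox1 at 438. Meis1 and Pknox2 stood at 252 each, and Pbx4 at 42.9. The order was not stable to the transcript chosen. With the median length of the protein-coding transcripts of each gene, Pbx3 came first at 2763 per kb, ahead of Pbx2 at 1553 and Meis2 at 1503. That median was only 518 bases for Pbx3, whose longest transcript has 2858, and 700 bases for Pknox2, whose longest has 3632. The first place of Pbx3 thus rests on short annotated transcripts. Pbx4 was last on both scales, at 69.1 per kb on the second. Neighbours in this order cannot be separated, since neither scale has a replicate spread.

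**Figure D3:**
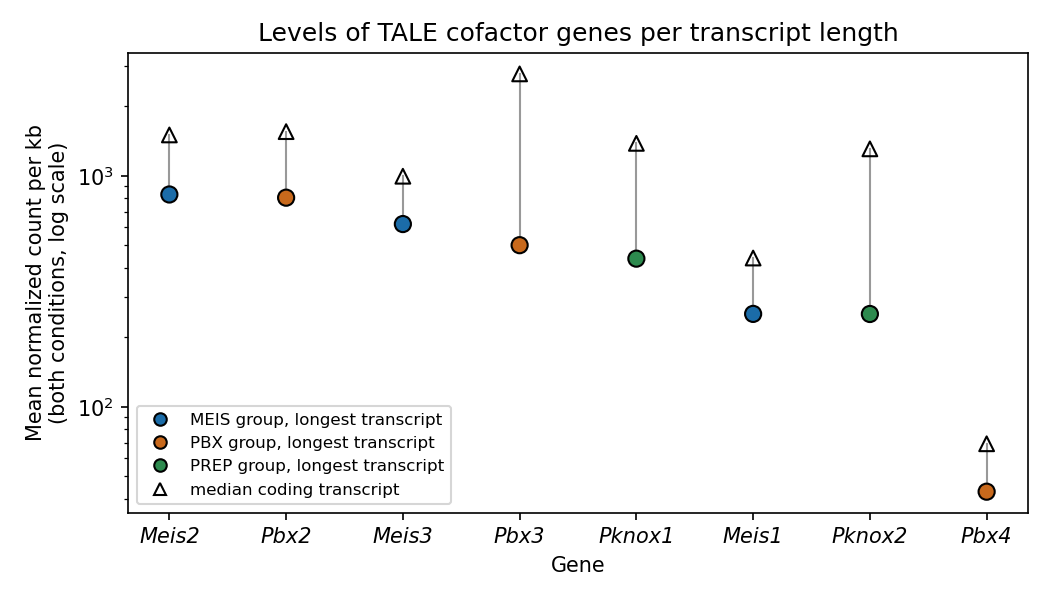
Mean normalized count over both conditions per kb of transcript (vertical log axis) for each of the 8 genes. Filled circles use the longest transcript and open triangles the median length of protein-coding transcripts, with a line joining the pair. Pbx4 is lowest on both scales, and Pbx3 moves from 501 to 2763 per kb, at lengths of 2858 and 518 bases.

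Reads of these genes could be shared with other annotated transcripts to different degrees. For Meis3, Pbx2, Pbx3, Pbx4 and Pknox2, 0 of the 50-base words in the longest transcript occurred in a transcript of another gene on either strand. In Meis1 13.3% of words were shared, 994 in number, of which 981 occur in Gm37818, an annotated gene that overlaps Meis1 exons on the same strand. In Pknox1 2.52% were shared, with an antisense transcript, and in Meis2 0.165%. The library kit does not mark strand, so reads of the antisense transcripts over Meis1 and Pknox1 exons cannot be told apart from those of Meis1 and Pknox1. Their exons cover 8.51% of the Meis1 exon bases and 2.24% of the Pknox1 exon bases. Exons of Gpsm3 overlap 6.24% of those of Pbx2 on the same strand. Overlaps were taken over the exons of all annotated transcripts of a gene, and words from its longest transcript alone. The count of 0 shared words for Pbx2 therefore does not exclude reads shared with Gpsm3. No such overlap or shared word was found for Pknox2, the member with the largest ratio.

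Other TALE genes outside the cofactor groups went both ways. Of 9 such genes, 7 were at the minimum mean, of which 1 met the size rule toward condition B and 1 toward condition A, and their median log2 ratio was -0.32. The Iroquois gene Irx1, which patterns tissues in the embryo, was 4.56-fold higher in condition B per the authors' deposited table (adjusted p = 0.0577). Irx3 was 3.10-fold lower there (adjusted p = 0.360 per the authors' deposited table). The TGFB-induced factor genes Tgif1 and Tgif2 had log2 ratios of -0.40 and -0.32, and the tendon factor gene Mkx one of 0.22, per the authors' deposited table. Pbxip1, whose protein binds PBX and holds it away from DNA, had a mean of 17832 normalized counts and a log2 ratio of 0.71 per the authors' deposited table (adjusted p = 1).

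The partners of the cofactors, the Hox genes, had larger ratios in the same libraries. Of 39 Hox genes, 32 were at the minimum mean, and 23 of these met the size rule toward condition B and 4 toward condition A. Their median log2 ratio was 2.57, beside 0.014 for the cofactors. Over all genes at the minimum mean, 8.31% met the size rule toward condition B and 9.60% toward condition A. By position in the clusters, 12 of 12 genes of the posterior groups (9 to 13) met it toward condition B, 8 of 10 of the central groups (5 to 8), and 3 of 10 of the anterior groups (1 to 4). Toward condition A it was met by 3 anterior genes, Hoxa2, Hoxa3 and Hoxa4, and by 1 central gene, Hoxa5. The Hoxa cluster thus went both ways, with 3 of 9 genes toward condition B, 4 toward condition A and a median log2 ratio of -0.58. An authors' adjusted p under 0.1 was reached by 13 of the 32 Hox genes and by 0 of the 8 cofactors. Of all 12401 genes at the minimum mean, 246 reached it toward condition B and 151 toward condition A. At so low a share, 0 of 8 does not set the cofactors apart from genes in general. The difference between the lists was not tested, since genes of 1 comparison are not replicates.

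**Figure D4:**
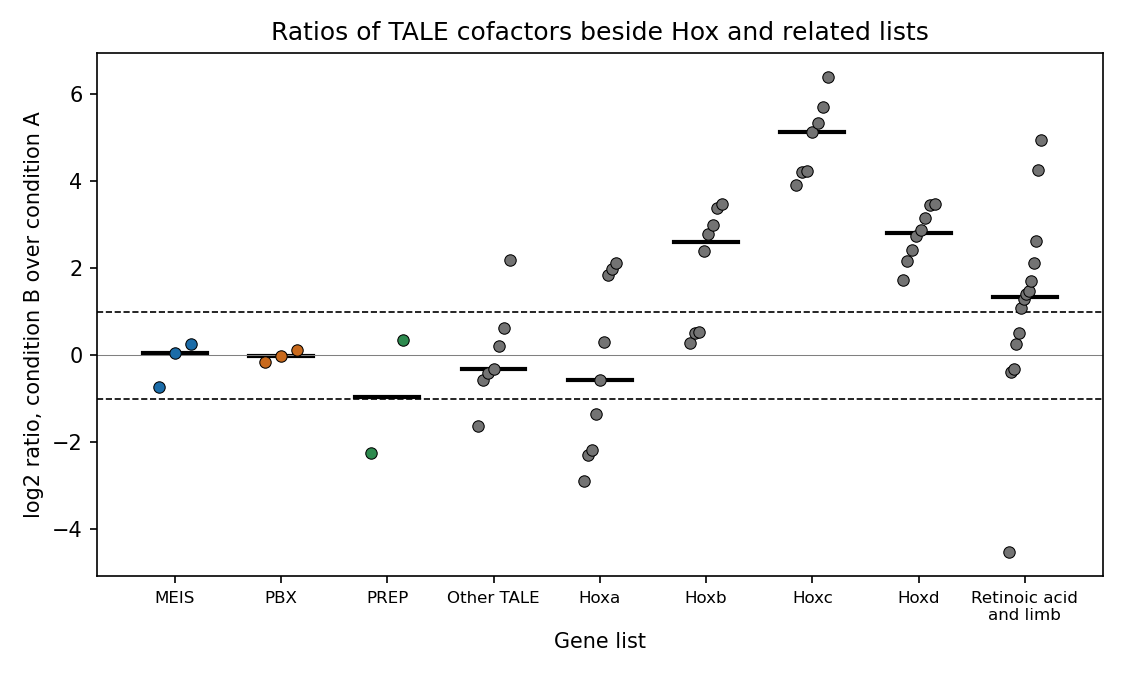
Log2 ratio of condition B over condition A for genes at a mean of 50 or more, by list. Points are genes, thick bars are list medians and dashed lines mark a log2 ratio of 1 in size. The MEIS and PBX genes lie between the dashed lines, as 1 of 2 PREP genes does, and the Hoxc genes lie from 3.90 to 6.39.

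Retinoic acid genes and limb genes, a list of mixed roles, met the size rule more often toward condition B than toward condition A. Of 17 genes, 14 were at the minimum mean, 9 met the size rule toward condition B and 1 toward condition A, and the median log2 ratio was 1.34. An authors' adjusted p under 0.1 was reached by 1 gene in each direction, Crabp1 and Cyp26b1. Crabp1, which binds retinoic acid in the cytoplasm, was 18.9-fold higher in condition B per the authors' deposited table (adjusted p = 4.03e-06). Cyp26b1, which breaks down retinoic acid, was 23.1-fold lower there (adjusted p = 2.00e-06 per the authors' deposited table). Aldh1a2, which makes retinoic acid, had a mean of 105 normalized counts and a log2 ratio of 4.93 per the authors' deposited table (adjusted p = 0.126). The receptor genes Rara and Rarg had log2 ratios of -0.33 and -0.40, and Rarb one of 2.12, per the authors' deposited table (adjusted p = 1 for each). Beside these, Meis1 and Meis2 stood at 0.049 and -0.73 per the authors' deposited table.

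Several facts of the whole comparison stand beside the Pknox2 ratio. All 6 listed proliferation genes (Mki67, Top2a, Ccnb1, Cdk1, Bub1 and Aurkb) met the size rule toward condition A, the direction of Pknox2, with log2 ratios from -2.26 to -1.39, and 2 of the 6 had an adjusted p under 0.1 per the authors' deposited table. Tet1 and Tet2 had log2 ratios of -1.82 and -0.74 per the authors' deposited table, and neither reached an adjusted p under 0.1. The 8 fibroblast markers had means of 2254 to 550534 normalized counts, and 2 of them, Pdgfra and Thy1, met the size rule toward condition B. The 5 epithelial markers had means of 0.527 to 111 normalized counts and the 4 endothelial ones of 8.43 to 418. Krt18, the epithelial marker at the minimum mean, had a log2 ratio of -2.29 per the authors' deposited table, the direction of Pknox2, and the 2 endothelial markers at that mean, Kdr and Tek, had log2 ratios of 2.78 and 1.21. The 5 blood markers had means from 0 to 1538. Among them Ptprc stood at 3.53 and Cd34, which is not restricted to blood cells, at 1538 with a log2 ratio of 1.89 per the authors' deposited table. The 4 neural markers had means from 10.9 (Sox2) to 5711 (Map2), with Sox10 at 31.0 and Tubb3 at 3977. The 2 of them at the minimum mean had log2 ratios of 0.08 (Map2) and 0.53 (Tubb3) per the authors' deposited table. The 4 germ and pluripotent cell markers ranged from 0 to 40.4. The part of proliferation or of cell mixture in the Pknox2 ratio was not tested. In bulk RNA, fewer cells that express a gene and less of its RNA per cell cannot be told apart.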

How the data were processed

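RNA of mouse embryonic fibroblasts was sequenced in 2 genotypes with 1 library each, after TRIzol extraction, DNase treatment and a TruSeq RNA v2 library, per the labels' protocols. The molecule is labelled genomic DNA, against that protocol. TopHat2 2.0, DESeq and mm9 appear in the submitters' processing notes, and for the counter, annotation and dispersion settings nothing is given in the sources used here. The signal, deposited by the authors, is the mean normalized count: gene counts divided by DESeq size factors, averaged over the conditions. The authors' deposited ratio (fold) is B over A with no pseudocount, and their deposited log2 value is its base-2 logarithm. The p-values, raw and adjusted, are the authors' deposited ones from DESeq. The 2 columns of per-condition values match no sample label and were not used, so depth per library and counting intervals were not analysed here. The planned comparison of knock-out with wild type became B over A.

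Ratios were summarized with Python 3.11.15, numpy 2.4.6 and pandas 2.3.3, and drawn with matplotlib 3.10.9. Scripts were tested on simulated data. Every one of the 8 members was named, and genes from the lists could be named when at the minimum mean. Members and lists were chosen with earlier results of these data known. Marker genes under the minimum mean were given to describe cell content. Lengths, exon overlaps and 50-base words came from GENCODE M21 (GRCm38), used for gene properties only. The word length was set here, the read length being not given in the sources used. Alternatives were other scalings (the median, and a mean that leaves out 30% of ratios and 5% of abundances at either end), a minimum mean of 10, of 200 or none, other sizes of ratio, and an adjusted p under 0.05.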

Additional observations from a re-analysis of the deposited data

How the results depend on the processing

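The count of 1 cofactor past the size rule was also 1 with the trimmed mean or the median of all ratios subtracted, with minimum means of 10, 200 or none, and with a log2 ratio of at least 2. The lowest mean of the 8 was 66.9 and that of Pknox2 was 916, so these minimum means could not change the count. Nor could subtracting -0.041 or -0.036, since no member had a log2 ratio that close to 1 in size. The count was 2, with Meis2 added, with the size rule set at 1.5-fold. Among all genes at the minimum mean with a finite ratio, 25.4% had a log2 ratio at least as large in size as Meis2. For Pknox2 that share was 5.28%. The exact shares of all genes past 1.5-fold or past a log2 ratio of 2 were not taken. Since Meis2 passed 1.5-fold, at least 25.4% of these genes did too, and 2 of 8 is not above that. At an adjusted p under 0.05 the count in the authors' deposited table was 0, as at 0.1. The median log2 ratio of the cofactors, 0.014, was 0.055 with the trimmed mean subtracted, 0.050 with the median subtracted and 0.049 at a minimum mean of 200, where Pbx4 drops out. Subtracting the trimmed mean (-0.041) or the median (-0.036) moved each ratio by that amount and changed the sign of 1 of 8, Pbx4. Pknox2 lay at -2.20 and -2.21 under these scalings. Length per gene by the median coding transcript was chosen after the data were seen. One library per genotype and unknown depth limit all ratios.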
